A study of Homo sapiens with 208 samples.

Results

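The genes described here are 10 modulators of Wnt signaling that are secreted or act at the cell surface or on Wnt secretion: DKK1, DKK3, SFRP1, FRZB, WIF1, KREMEN1, KREMEN2, LRP5, LRP6 and PORCN. They were found through the RefSeq accessions of the array probes, which gave 17 probes of these 10 genes among 17252 genes with a probe. For a test, 13 or more of the 26 arrays of some course had to show the probe well above background. By this rule 9 of the 10 genes were among the 13458 genes tested, and WIF1 did not pass.

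PC9 is a human lung adenocarcinoma line whose EGFR carries an activating deletion. Gefitinib is an inhibitor of the EGFR kinase. PC9GRM2, called PC9M2 in the study's text, is 1 resistant clone of PC9 selected by long exposure to gefitinib, so a difference between the lines is a difference from a single clone. Cells were starved for 48 h, and RNA was then collected from each line at 0, 0.5 and 1 h and hourly to 24 h, which made 26 time points. The 4 treatments of each line were no addition, 0.5 uM gefitinib given from 2 h before time 0, 100 ng/ml EGF given at time 0, and both agents. All groups share the starvation, and the untreated groups received neither agent.

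Each of the 8 time courses held 26 one-colour arrays, 1 for each time point, and no array was repeated. The tests therefore took the time points as replicates, n below is their number, and p-values measure only the spread between time points, which are not independent of each other. A level is the log2 of the quantile-normalized signal, and a difference is the mean over the 26 matched time points with its SD or SE. The levels of different probes were not compared with each other. Treatments always lay at the same position of a slide (untreated 1, EGF 2, both agents 3, gefitinib 4), so treatment and slide position cannot be told apart. The lines shared neither a slide nor a scan day, so line and scan period cannot be told apart.

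The arrays had 24464 to 35938 features well above background, and no probe of the 10 genes was saturated on any array. All 7 epithelial markers examined were well above background on every array. Of the lung lineage markers, NKX2-1 was so on 0 to 3 of the 26 arrays of a course, SFTPB on 9 to 13, and NAPSA and SFTPC on 25 or 26. Among markers of other cell types, PTPRC, COL3A1 and ALB were near background (at most 5 arrays of a course), CD3E was above it on 7 to 15, and PECAM1 on 25 or 26. Their part in the results was not tested. In bulk RNA, fewer cells of a type and less RNA per cell cannot be told apart. DUSP6, which EGFR signaling induces, fell with gefitinib by 6.80 in PC9 and by 2.17 in PC9GRM2 on the log2 scale. Among the arrays, 3 stood apart from their neighbours in time, namely untreated PC9GRM2 at 11 h, gefitinib-treated PC9 at 16 h and untreated PC9 at 18 h. Calls that changed without these 3 time points are given with and without them.

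Wnt proteins are made active by PORCN, the acyltransferase that attaches a lipid to them before they leave the cell. At the receiving cell they bind a Frizzled receptor together with LRP5 or LRP6, which leads to stabilization of β-catenin and to transcription through TCF/LEF factors. Secreted antagonists act outside the cell. SFRP1, FRZB and WIF1 bind Wnt proteins, whereas DKK1 binds LRP5 and LRP6 and, with a Kremen protein (KREMEN1 or KREMEN2), takes them off the surface. DKK3 belongs to the DKK family but is a divergent member that is not known as a potent LRP ligand. Several antagonists, DKK1 among them, are themselves known targets of β-catenin.

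The promoters of 3 genes whose signal was higher with EGF in PC9 are shown, because DKK1, PORCN and FRZB were called in that one comparison and had an entry in the promoter table. SFRP1 was also called higher there, but its promoter was not looked up. Each is the 120 bases before the start site in the RefSeq table (GRCh38.p14), written 5′ to 3′ on the gene's strand. Capitals mark matches to the TCF/LEF core, which was searched as the letters CTTTG followed by 2 letters that are each A or T, on both strands of the 250 bases before the start. They stand for DKK1 at chr10:52314161-52314280 on the plus strand, PORCN (the first of its start sites) at chrX:48508872-48508991 on the plus strand, and FRZB at chr2:182866638-182866757 on the minus strand.
DKK1: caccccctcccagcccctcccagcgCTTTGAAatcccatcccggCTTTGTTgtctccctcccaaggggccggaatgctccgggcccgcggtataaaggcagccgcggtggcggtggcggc
PORCN: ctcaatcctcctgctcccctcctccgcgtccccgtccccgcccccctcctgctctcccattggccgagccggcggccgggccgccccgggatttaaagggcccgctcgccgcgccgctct
FRZB: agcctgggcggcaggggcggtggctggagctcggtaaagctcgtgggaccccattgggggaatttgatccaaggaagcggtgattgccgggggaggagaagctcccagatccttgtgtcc
DKK1 held 2 matches, CTTTGAA at 95 and CTTTGTT at 76 bases before the start, whereas the windows of PORCN, FRZB, LRP5 and WIF1 held none. Of 35116 promoter windows of the same length, 11.96% held at least 1 match and 1.21% held at least 2. A match describes the letters only and is not a binding site.

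The first question was how the resistant line differed from its parent. Without treatment, 8 of the 9 tested genes differed between the lines, 7 higher and 1 lower in PC9GRM2, by the moderated test of limma, with p-values adjusted over all tested genes by Benjamini-Hochberg and called at 0.05. Of all 13458 genes, 68.1% were called in this comparison, 31.2% of them higher and 36.9% lower as shares of the genes tested. With gefitinib 6 of the 9 were called, all higher (all genes: 65% called, 30.8% higher). With EGF 8 were called, 7 higher and 1 lower (all genes: 69.9% called, 32.9% higher and 36.9% lower). With both agents all 9 tested genes were called, 8 higher and 1 lower (all genes: 67.7% called, 31.6% higher and 36.1% lower). A called line difference was thus common among all genes. DKK3, called higher under every treatment, passed the rule for a test only in the PC9GRM2 courses. Without treatment the median difference of the 9 genes was 0.95, against -0.05 over all genes, and 5 of the 9 differed by at least 1 on the log2 scale, against 17.0% of all genes. This was not tested, because the genes were chosen with results known, and no conclusion is drawn from it.

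**Figure D1:**
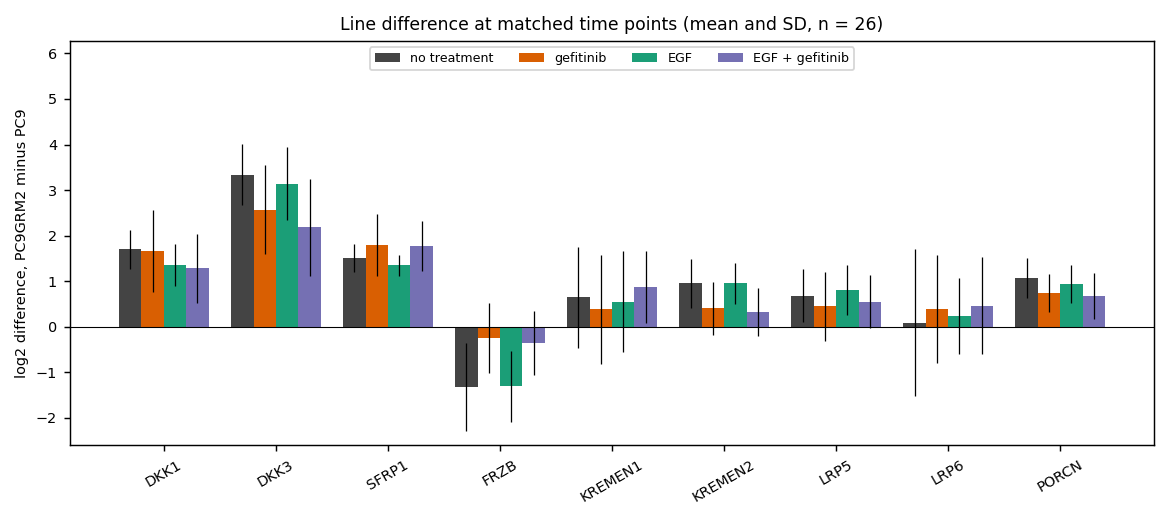
Log2 difference of PC9GRM2 minus PC9 for the 9 tested genes under each treatment, with the mean and SD over 26 matched time points. DKK3, DKK1 and SFRP1 lie above 1 under all 4 treatments, FRZB lies below 0 under all 4, by -1.32 and -1.31 without treatment and with EGF, and LRP6 runs from 0.09 without treatment to 0.46 with both agents.

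DKK3, DKK1 and SFRP1 were higher in PC9GRM2 under all 4 treatments, and DKK3 was near background in PC9. The DKK3 level in untreated PC9 was 1.91 at the lowest, 1.98 at the median and 3.32 at the highest, and in untreated PC9GRM2 4.29, 5.81 and 6.51. The ranges did not overlap without treatment, with gefitinib (1.94 to 4.76 against 5.09 to 6.64) and with both agents (2.62 to 4.86 against 5.07 to 6.34), and they overlapped with EGF (1.92 to 4.41 against 4.28 to 6.57). The mean difference was 3.34 without treatment (SE 0.13), 2.57 with gefitinib, 3.14 with EGF and 2.19 with both, and PC9GRM2 was higher at every time point. With normexp background correction the untreated difference was 0.31, still called. The probe passed the rule for a test only in the PC9GRM2 courses, where it was high. Its calls between the lines are therefore not used as support. In PC9 the DKK3 probe was well above background on only 3 (untreated), 6 (gefitinib), 2 (EGF) and 7 (both) of 26 arrays, and in PC9GRM2 on all 26 of each course. The fold is therefore given as a bound within the main normalization, with each dim array raised to a limit for signals well above background. In untreated PC9 this gave a mean of 4.19, above the highest DKK3 level there. By this bound DKK3 was at least 2.74-fold higher in PC9GRM2 without treatment, 3.47-fold with gefitinib, 2.94-fold with EGF and 3.41-fold with both. The bound does not cover normexp, where the log2 difference of the untreated lines was 0.31. The other 2 DKK3 probes passed the background limit on 41 and 5 arrays in all and were not tested.

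DKK1 is the antagonist of LRP5 and LRP6. Untreated PC9 gave 7.26 at the lowest, 7.78 at the median and 9.12 at the highest, and untreated PC9GRM2 8.75, 9.46 and 10.67. Most PC9GRM2 arrays were above the highest PC9 array, but the ranges overlapped. Over the course PC9GRM2 was higher by a mean of 1.70 (SE 0.09, adjusted p = 1.93e-16, 3.24-fold), and it lay between 0.86 and 2.47 at the single time points. With gefitinib it was 1.66, with EGF 1.36 and with both 1.28. The difference with gefitinib was not even over time: it was 0.44 ± 0.64 (SD, n = 6) from 0 to 4 h, 2.09 ± 0.40 (SD, n = 8) from 5 to 12 h and 1.98 ± 0.73 (SD, n = 12) from 13 to 24 h.

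SFRP1, a secreted Frizzled-related protein, also differed by more than 1 under all treatments. Its level in untreated PC9 was 10.89 at the lowest, 11.57 at the median and 11.90 at the highest. In untreated PC9GRM2 it was 11.96, 13.13 and 13.98, so that every array of the resistant line was above every array of its parent. The ranges were also separate with gefitinib (10.22 to 11.81 against 12.10 to 13.15) and with both agents (10.10 to 11.47 against 11.93 to 13.07). On average the lines differed by 1.51 without treatment (SE 0.07, adjusted p = 1.46e-17), 1.80 with gefitinib, 1.35 with EGF and 1.78 with both. A second SFRP1 probe gave 1.09, 1.48, 0.98 and 1.47 for the same comparisons, all called, and correlated with the first at 0.955 over all arrays.

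FRZB, also called SFRP3, went the other way. The level in untreated PC9 ran from 2.02 over a median of 5.69 to 7.25, and in untreated PC9GRM2 from 1.94 over 4.21 to 5.58. The mean difference was -1.32 without treatment (SE 0.18, adjusted p = 2.21e-07) and -1.31 with EGF, and with both agents it was -0.36 (adjusted p = 0.0173). With gefitinib it was -0.25 and missed the threshold (adjusted p = 0.131), and it was -0.33 and called (adjusted p = 0.0399) without the 3 time points whose arrays stand apart. A second FRZB probe did not bear this out: its difference was -0.16 without treatment (adjusted p = 0.406), -0.39 with EGF and, opposite in sign, 0.34 with both (adjusted p = 0.00848). FRZB was dim, with 24 of 26 untreated PC9 arrays but only 11 of 26 untreated PC9GRM2 arrays well above background.

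WIF1, the Wnt inhibitory factor, was well above background on 4 arrays in all at each of its 2 probes. Its level had a median between 2.48 and 2.61 in all 8 courses at the first probe. Single arrays reached 8.17 (PC9 with EGF at 16 h) and 7.44 (untreated PC9 at 5 h), without a like value of that probe at the neighbouring time points. No comparison was made for it.

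**Figure D2:**
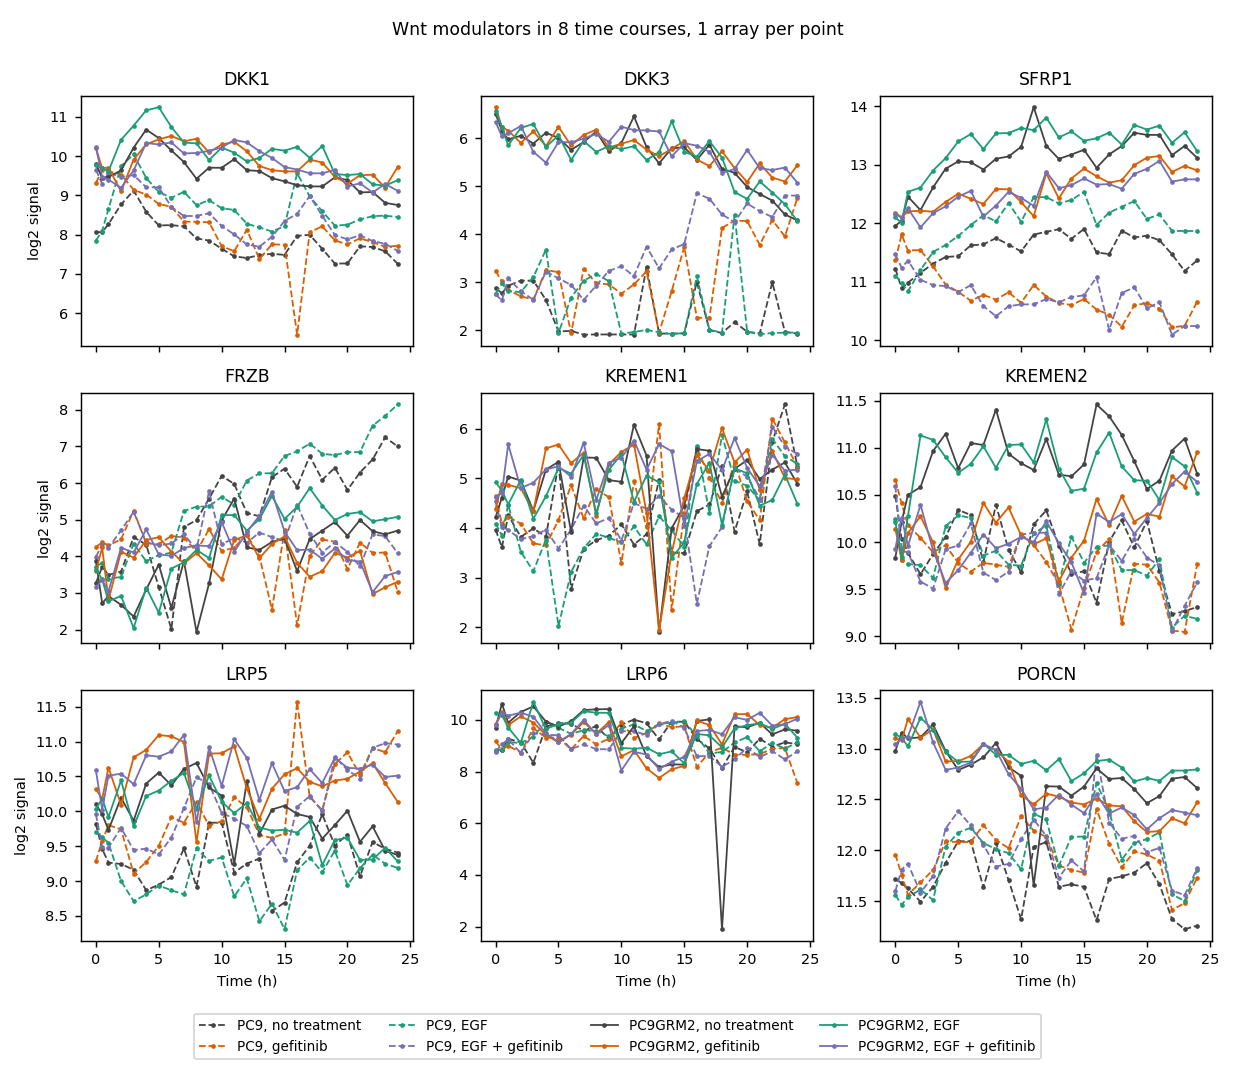
Log2 signal of each tested gene over the 26 time points (hours) in the 8 courses, by line and treatment, 1 array per point. DKK1, DKK3 and SFRP1 of PC9GRM2 run above those of PC9, and FRZB of untreated and EGF-treated PC9 rises to above 6 late in the course while the gefitinib courses stay low.

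The Kremen proteins, receptors for DKK1, were both higher in PC9GRM2 at one probe or more. KREMEN2 had levels from 9.23 over a median of 9.93 to 10.49 in untreated PC9 and from 9.84 over 10.85 to 11.46 in untreated PC9GRM2. The difference was 0.95 without treatment (SE 0.11, adjusted p = 6.24e-09) and 0.95 with EGF, but 0.40 with gefitinib and 0.32 with both. Over the first 13 time points the latter were 0.06 (adjusted p = 0.687) and 0.07 (adjusted p = 0.586), and both calls were also lost with the variance widened for autocorrelation (adjusted p = 0.135 and 0.133). The call with both agents was lost besides with time points 3 h apart (0.22, adjusted p = 0.351) and with scan day as a random block (0.32, adjusted p = 0.083). For KREMEN1 the probe with the largest variance was dim (well above background on 151 arrays), and its differences were 0.64, 0.38 (gefitinib, adjusted p = 0.132), 0.55 and 0.87. The calls of this dim probe without treatment and with EGF were lost over the last 13 time points, where it gave 0.22 and -0.15. The second KREMEN1 probe was bright on all arrays and ran from 8.50 over 9.16 to 9.82 in untreated PC9 and from 10.02 over 10.50 to 10.97 in untreated PC9GRM2. There the lines did not overlap, and PC9GRM2 was higher at all 26 time points by 1.39 (SE 0.09, adjusted p = 3.02e-14). That probe gave 1.01 with gefitinib, 1.42 with EGF and 1.08 with both, again higher at every time point.

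LRP5 and LRP6, the co-receptors, differed less. LRP5 ranged from 8.57 over a median of 9.30 to 9.96 in untreated PC9 and from 9.25 over 9.99 to 10.69 in untreated PC9GRM2. Its difference was 0.68 (SE 0.11, adjusted p = 4.15e-06), and 0.45 with gefitinib, 0.80 with EGF and 0.55 with both. The calls with gefitinib and with both agents were lost over the last 13 time points. That with gefitinib was also lost with the variance widened for autocorrelation, with time points 3 h apart and with scan day as a random block. With gefitinib the LRP5 difference was found early, at 1.02 ± 0.53 (SD, n = 6) from 0 to 4 h, and was -0.07 ± 0.58 (SD, n = 12) from 13 to 24 h. The LRP6 probe with the largest variance gave 0.09 without treatment (adjusted p = 0.809). That value hung on the untreated PC9GRM2 array at 18 h, which lay at 1.90 against a median of 9.76 and was not well above background: without 18 h it was 0.34 (adjusted p = 0.111), and without 3 h it was 0.0023. Over the first 13 time points it was 0.65 and called (adjusted p = 0.014), and over the last 13 it was -0.48 (adjusted p = 0.425). The same probe gave 0.38 and 0.23 with gefitinib or EGF (neither called) and 0.46 with both (adjusted p = 0.0405, lost when any of 18 single time points was left out, at 0.46 and adjusted p = 0.06 without the 3 time points whose arrays stand apart). The second LRP6 probe pointed the other way, lower in PC9GRM2 at all 26 time points without treatment, by -0.86 (SE 0.06, adjusted p = 4.35e-13), and by -0.53, -0.92 and -0.62 with gefitinib, EGF and both. The 2 LRP6 probes correlated at 0.195 over all arrays, and no direction is given for the gene.

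PORCN, needed for Wnt secretion, was higher in PC9GRM2 throughout. Its level went from 11.22 over a median of 11.67 to 12.09 in untreated PC9 and from 11.66 over 12.73 to 13.24 in untreated PC9GRM2. The low end of PC9GRM2, 11.66, was the array at 11 h, which stands apart. The difference was 1.07 (SE 0.09, adjusted p = 9.9e-12), 0.74 with gefitinib, 0.93 with EGF and 0.67 with both, and with EGF the ranges did not overlap (11.46 to 12.66 against 12.68 to 13.30).

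**Figure D3:**
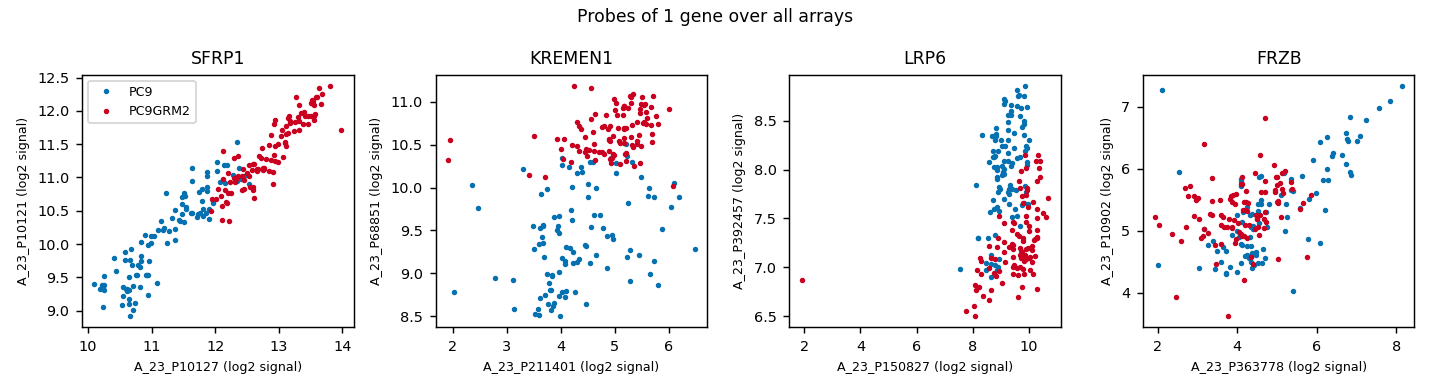
Log2 signal of the second probe (vertical axis) against that of the probe used for the gene (horizontal axis) for SFRP1, KREMEN1, LRP6 and FRZB, with 1 point for each array, by line. The SFRP1 probes fall on a line (correlation 0.955), the bright KREMEN1 probe separates most arrays of the 2 lines, and the LRP6 probes have little in common (0.195).

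The second question was how the genes responded to gefitinib. In PC9, 6 of the 9 were called, 4 higher and 2 lower with the drug (all genes: 72.2% called, 35.2% higher and 37% lower). LRP5, DKK3, DKK1 and PORCN were higher, and SFRP1 and FRZB were lower. In PC9GRM2, 4 were called, DKK1 and LRP5 higher and KREMEN2 and SFRP1 lower (all genes: 66.6% called, 32.6% higher and 34% lower). The same contrast in the presence of EGF rests on other arrays. It called 5 in PC9, 2 higher and 3 lower (all genes: 78.9% called, 39.1% higher and 39.8% lower), and 6 in PC9GRM2, 2 higher and 4 lower (all genes: 74.4% called, 36.7% higher and 37.7% lower). All 4 counts are below the number that the share of all genes would give. The absolute difference had a median of 0.34 over the 9 genes and 0.44 over all genes in PC9, and 0.14 and 0.32 in PC9GRM2.

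**Figure D4:**
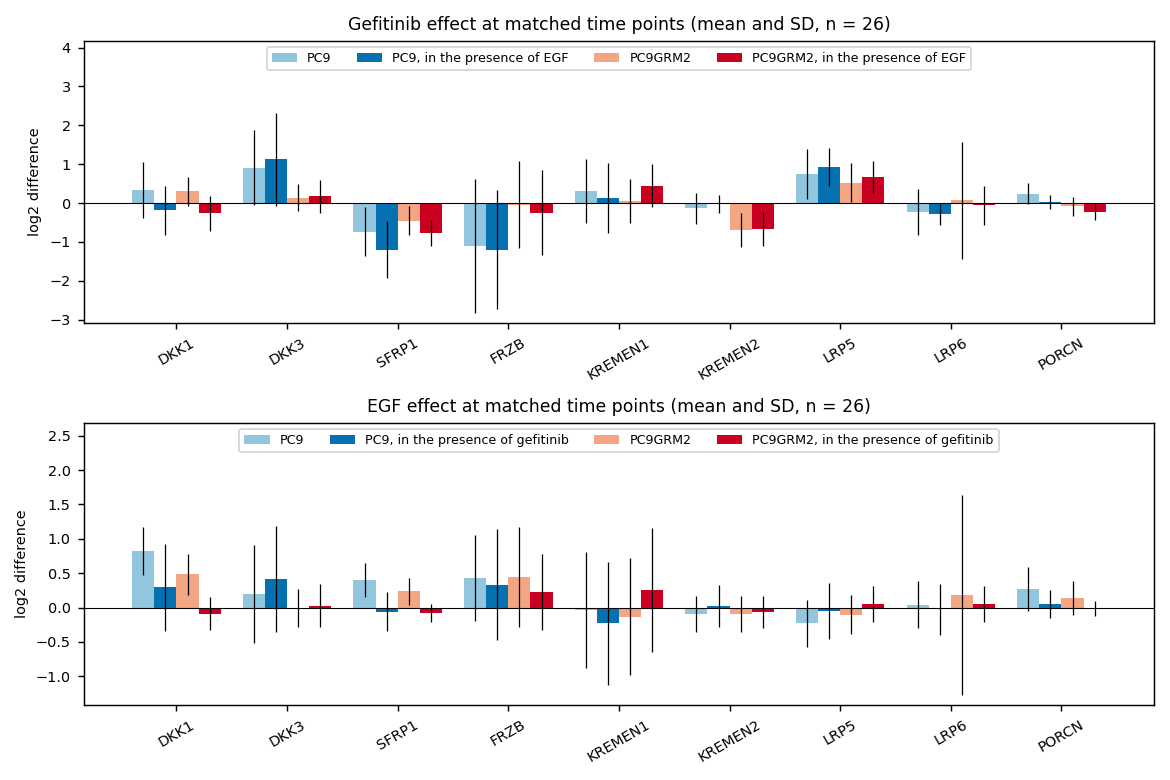
Mean log2 difference with SD over 26 matched time points for gefitinib (upper panel) and EGF (lower panel) in each line, without and with the other agent. SFRP1 is lower and LRP5 higher with gefitinib in all 4 settings, and the EGF bars of DKK1 and SFRP1 are smaller or near 0 in the presence of gefitinib.

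SFRP1 fell with gefitinib and LRP5 rose, in both lines and with and without EGF. SFRP1 in gefitinib-treated PC9 went from 10.22 over a median of 10.69 to 11.81, against 10.89, 11.57 and 11.90 without treatment. On average gefitinib changed it by -0.74 in PC9 (SE 0.12, adjusted p = 3.26e-06, lower at 22 of 26 time points) and -1.20 with EGF present, and -0.46 and -0.77 in PC9GRM2. Its second probe gave -0.88 and -1.26 in PC9 and -0.49 and -0.76 in PC9GRM2, all called. The fall was not present at the start in PC9: the difference was 0.25 ± 0.48 (SD, n = 6) from 0 to 4 h, -0.89 ± 0.15 (SD, n = 8) from 5 to 12 h and -1.13 ± 0.22 (SD, n = 12) from 13 to 24 h. In PC9GRM2 it was -0.16 ± 0.30, -0.76 ± 0.47 and -0.40 ± 0.15 in the same windows. When the variance was widened for the autocorrelation of the differences, the SFRP1 call in PC9 was lost (adjusted p = 0.12).

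LRP5 in gefitinib-treated PC9 ran from 9.11 over a median of 9.89 to 11.57, partly above the untreated range of 8.57 to 9.96. This came to a mean of 0.75 (SE 0.12, adjusted p = 4.04e-06, higher at 23 of 26 time points), 0.93 with EGF present, and 0.52 and 0.67 in PC9GRM2. In PC9 it grew from 0.16 ± 0.41 (SD, n = 6) at 0 to 4 h over 0.61 ± 0.47 (SD, n = 8) to 1.14 ± 0.60 (SD, n = 12) at 13 to 24 h. The difference of the LRP5 effects between the lines missed the threshold at -0.24 (95% interval -0.52 to 0.05, adjusted p = 0.218).

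FRZB fell with gefitinib in PC9 late in the course. Without treatment its level in PC9 rose from 3.27 at 0 h to 7.00 at 24 h, a fitted range over time of 3.54, whereas with gefitinib it was 4.26 at 0 h and 3.03 at 24 h, and its change over time missed the threshold (adjusted p = 0.203). The mean difference of -1.11 (SE 0.32, adjusted p = 0.0029) joined 0.68 ± 0.34 (SD, n = 6) from 0 to 4 h, -0.33 ± 1.52 (SD, n = 8) from 5 to 12 h and -2.52 ± 0.94 (SD, n = 12) from 13 to 24 h. With EGF present the last window gave -2.57 ± 0.75. In PC9GRM2 the mean differences of -0.04 and -0.25 (with EGF) were not called, and the last window gave -0.75 ± 0.63 and -1.07 ± 0.69. The second FRZB probe gave -0.30 and -0.86 in PC9, both called, and went from 4.77 to 6.45 between 0 and 24 h without treatment and from 4.61 to 4.41 with gefitinib. Over the first 13 time points the mean FRZB difference in PC9 was 0.16 and over the last 13 it was -2.37, so the call rests on the later hours. Only 13 of the 26 gefitinib-treated PC9 arrays were well above background at the first probe.

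DKK1 was higher with gefitinib in PC9 at 24 of 26 time points, and most in the first hours. Its level at 0 h was 9.31 against 8.07 without treatment. From 0 to 4 h the difference was 0.90 ± 0.60 (SD, n = 6), from 5 to 12 h 0.37 ± 0.23 (SD, n = 8) and from 13 to 24 h 0.04 ± 0.83 (SD, n = 12). The mean over all time points was 0.34 (SE 0.14, adjusted p = 0.0265), and without 0.5 h it was 0.29 (adjusted p = 0.051). The lowest array, 5.46 at 16 h, is one of those that stand apart. It gave the lowest difference, -2.51, which is part of the late window and lowers its mean. Leaving out single time points gave means over the course of 0.29 to 0.45. In PC9GRM2 the difference was 0.30 (SE 0.07, adjusted p = 0.000615), and it was -0.05 ± 0.39 from 0 to 4 h and 0.47 ± 0.29 from 5 to 12 h. With EGF present the sign was negative, -0.19 in PC9 (adjusted p = 0.148) and -0.27 in PC9GRM2 (adjusted p = 0.00643).

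DKK3 was higher with gefitinib in PC9 by 0.91 (SE 0.18, adjusted p = 5.41e-05) and by 1.13 with EGF present, with the late window at 1.40 ± 1.08 and 2.09 ± 0.87. Most of these arrays were not well above background, and with a floor of 16 on the signal the first of these fell to 0.07 (adjusted p = 0.18). PORCN was higher by 0.24 in PC9 without EGF (SE 0.06, adjusted p = 0.000777), but with EGF present it was 0.03 and not called (adjusted p = 0.574). In PC9GRM2 it was not called without EGF (-0.08, adjusted p = 0.163) and lower by -0.24 with EGF present (adjusted p = 1.81e-05).

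KREMEN2 was lower with gefitinib in PC9GRM2, from 9.51 over a median of 10.16 to 10.95 against 9.84, 10.85 and 11.46 without treatment. The mean difference was -0.69 (SE 0.08, adjusted p = 4.75e-08, lower at 24 of 26 time points) and -0.66 with EGF present. In PC9 it was -0.14 (adjusted p = 0.13) and -0.02. The dim KREMEN1 probe was called only in PC9GRM2 with EGF present, at 0.45. In PC9 with EGF present it gave 0.12 (adjusted p = 0.519), and 0.34 (adjusted p = 0.00195) without the 3 time points whose arrays stand apart. The bright KREMEN1 probe rose in all 4 settings, by 0.67 and 0.70 in PC9 at every time point, and by 0.29 and 0.37 in PC9GRM2. Both members of the pair thus moved, KREMEN1 up at its bright probe and KREMEN2 down in the resistant line.

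For LRP6 the first probe gave -0.23 in PC9 (adjusted p = 0.0743) and -0.29 with EGF present (adjusted p = 2.85e-05), and the second gave -0.64 and -0.68, lower at all 26 time points. In PC9GRM2 the first probe gave 0.07 (adjusted p = 0.841), but without 18 h, where the untreated array was low, the difference was -0.21 and passed the threshold (adjusted p = 0.027). Without the 3 time points whose arrays stand apart, which include 18 h, it was -0.19, and 7 of the 9 genes were called in place of 4, with DKK3 at 0.16, PORCN at -0.11 and LRP6 added. The share of all genes called without these time points is not given, so no conclusion is drawn from that count. The second LRP6 probe gave -0.31 and -0.38 in PC9GRM2, both called. With gefitinib, then, LRP6 was lower at both probes where a call was made, which is the reverse of LRP5.

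Whether the gefitinib response differed between the lines was tested as the difference of the effects at matched time points. Of the 9 genes 4 were called (all genes: 33.9% called, 16.9% higher and 17% lower in PC9GRM2). FRZB differed by 1.07 (SE 0.24, adjusted p = 0.000804), KREMEN2 by -0.55 (SE 0.10, adjusted p = 5.68e-05), PORCN by -0.33 (SE 0.08, adjusted p = 0.00329) and DKK3 by -0.77 (SE 0.16, adjusted p = 0.000325). The FRZB value was 0.25 at the second probe (adjusted p = 0.225), and that of DKK3 turned to 0.07 with a floor of 16. SFRP1 just missed the threshold at its first probe (0.28, adjusted p = 0.0514), passed it there without the 3 time points whose arrays stand apart (0.28, adjusted p = 0.0418), and passed it at the second (0.40, adjusted p = 0.00232). The bright KREMEN1 probe (-0.38, adjusted p = 7.56e-05) and the second LRP6 probe (0.33, adjusted p = 0.00483) passed too, in each case with the smaller response in PC9GRM2.

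The third question was the response to EGF. In PC9, 5 of the 9 genes were called, 4 higher and 1 lower (all genes: 25.4% called, 11.2% higher and 14.2% lower). In PC9GRM2, 3 were called, all higher (all genes: 9.09% called, 4.03% higher and 5.06% lower). Here the counts lie above the share of all genes, which was not tested because the genes were chosen with results known. The absolute difference had a median of 0.23 over the 9 genes and 0.09 over all genes in PC9, and of 0.14 and 0.07 in PC9GRM2.

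DKK1 had the largest EGF response of the 9. Its level with EGF in PC9 ran from 7.85 over a median of 8.61 to 10.04, against 7.26, 7.78 and 9.12 without, with the lowest at 0 h and the highest at 3 h. At 0 h, when EGF had just been given, the difference was -0.22, and at the other 25 time points DKK1 was higher with EGF. The mean difference was 0.82 (SE 0.07, adjusted p = 1.72e-09, 1.77-fold). By windows it was 0.49 ± 0.51 (SD, n = 6), 0.92 ± 0.15 (SD, n = 8) and 0.92 ± 0.27 (SD, n = 12). In PC9GRM2 the mean difference was 0.48 (SE 0.06, adjusted p = 4.12e-06), again higher at 25 of 26 time points, with windows of 0.36 ± 0.30, 0.48 ± 0.28 and 0.55 ± 0.32. The response was smaller in PC9GRM2 by -0.34 (SE 0.07, adjusted p = 0.00951), the single call of 9 for the difference of the EGF effects between the lines (all genes: 1.32% called, 0.773% lower). That call was lost with normexp background correction, where the difference was -0.11 (adjusted p = 0.27).

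**Figure D5:**
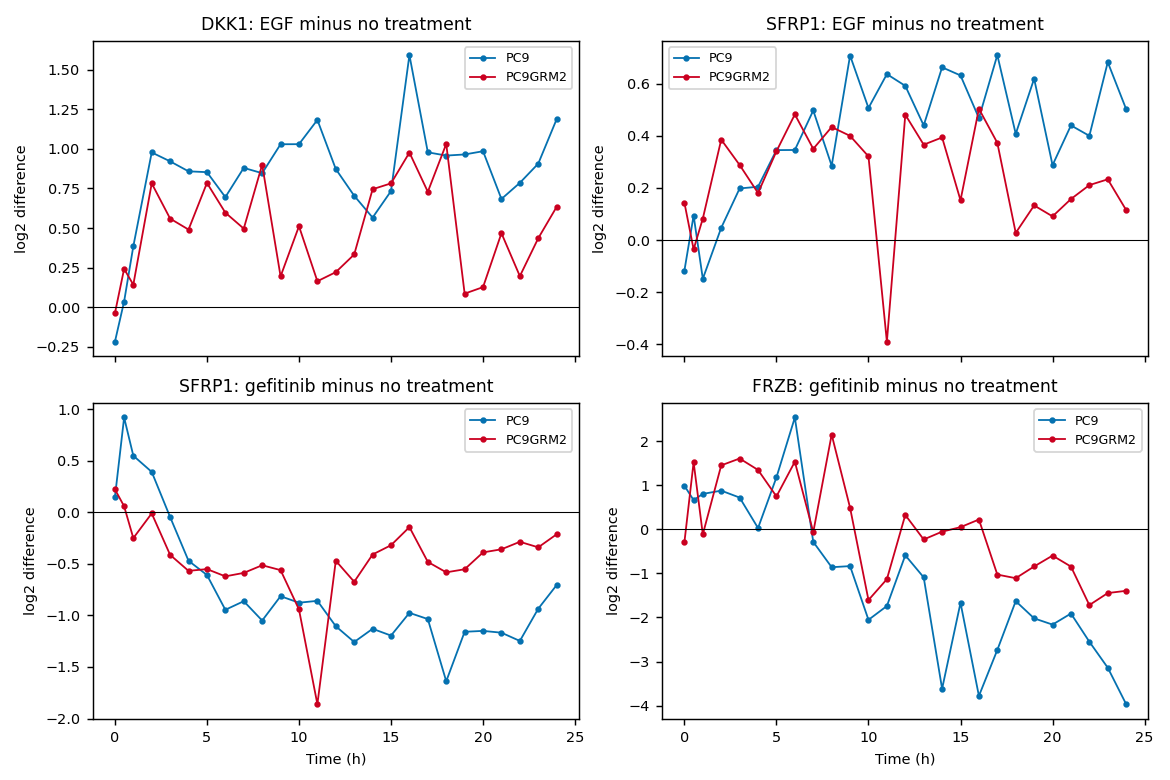
Log2 difference at each of the 26 time points (hours) in PC9 and PC9GRM2, for EGF on DKK1 and SFRP1 (upper panels) and gefitinib on SFRP1 and FRZB (lower panels). The DKK1 response to EGF starts near 0 at 0 h, and the SFRP1 and FRZB responses to gefitinib in PC9 turn negative after the first hours. The SFRP1 points of PC9GRM2 at 11 h rest on an untreated array that stands apart.

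SFRP1 rose with EGF in both lines, by 0.40 in PC9 (SE 0.05, adjusted p = 5.16e-07). In PC9GRM2 the rise was 0.24 (SE 0.04, adjusted p = 0.000258), and 24 of 26 time points were higher in either line. In PC9 it was 0.05 ± 0.15 (SD, n = 6) from 0 to 4 h and 0.49 ± 0.15 (SD, n = 8) from 5 to 12 h. The second probe gave 0.32 and 0.21, both called. FRZB rose by 0.43 in PC9 (adjusted p = 0.00646), and its rise in PC9GRM2 was 0.44 (adjusted p = 0.0386). The latter call was lost when any of 13 single time points was left out, and the second probe gave 0.34 in PC9 (called) and 0.11 in PC9GRM2 (adjusted p = 0.454). PORCN rose by 0.27 in PC9 (SE 0.06, adjusted p = 0.00154), and LRP5 fell by 0.23 (SE 0.07, adjusted p = 0.0106), opposite to its rise with gefitinib. In PC9GRM2, without the 11 h time point, 5 genes were called in place of 3, PORCN at 0.10 and LRP5 at -0.14 added. No conclusion is drawn from that count either, since the share of all genes without 11 h is not given. Without all 3 time points whose arrays stand apart, PORCN was called at 0.10 (adjusted p = 0.0145) and FRZB, at 0.41, was not (adjusted p = 0.0556).

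With gefitinib present, no EGF response of the 9 genes passed the threshold in either line, in comparisons added after the data had been seen. In PC9 limma called 0 of 9 (3 at an unadjusted p under 0.05), the ordinary paired test of the methods likewise 0 (3 unadjusted), and 0.0446% of all genes were called. In PC9GRM2 both called 0 (2 unadjusted each), and 3.15% of all genes were called, 1.04% higher and 2.11% lower. The DKK1 difference was then 0.29 in PC9 (SE 0.12, adjusted p = 0.346) and -0.09 in PC9GRM2 (SE 0.05, adjusted p = 0.327). That of SFRP1 was -0.06 in PC9 and -0.07 in PC9GRM2. The EGF effects with and without gefitinib differed by -0.53 for DKK1 (adjusted p = 0.00117), by -0.46 for SFRP1 (adjusted p = 4.19e-05) and by -0.22 for PORCN (adjusted p = 0.0164) in PC9 (all genes: 13% called, 8.44% higher and 4.55% lower). In PC9GRM2 they differed by -0.57 for DKK1 (adjusted p = 4.53e-05) and by -0.31 for SFRP1 (adjusted p = 0.000287) (all genes: 9.99% called, 5.47% higher and 4.52% lower). PORCN in PC9GRM2 was at -0.15 (adjusted p = 0.0725), and at -0.11 and called (adjusted p = 0.045) without the 3 time points whose arrays stand apart. In both lines, then, the EGF responses of DKK1 and SFRP1 were smaller under the inhibitor by a test of the difference itself.

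For DKK1 the order of the 8 courses by mean level was PC9GRM2 with EGF (10.05), with gefitinib (9.87), with both (9.78) and untreated (9.57), then PC9 with EGF (8.69), with both (8.50), with gefitinib (8.21) and untreated (7.87). The SDs within a course were 0.41 to 0.89, larger than the steps between neighbours of one line. The lines did not mix in this order. For SFRP1 the order was PC9GRM2 with EGF (13.29), untreated (13.05), with gefitinib (12.59) and with both (12.52), then PC9 with EGF (11.94), untreated (11.54), with gefitinib (10.80) and with both (10.74), with SDs of 0.28 to 0.47. In each line the pair of courses with gefitinib differed by less than their SDs. The pair without it differed by less than the larger of their SDs, although the difference matched by time was called.

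Change over time was tested with a spline in the 4 courses without EGF. It was called for 6 of 9 genes in untreated PC9 (all genes: 66.3%), 7 in gefitinib-treated PC9 (77.7%), 7 in untreated PC9GRM2 (67.1%) and 6 in gefitinib-treated PC9GRM2 (63.6%), which is near the share of all genes. The counts of both PC9 courses include DKK3, which was well above background on only 3 of 26 untreated and 6 of 26 gefitinib-treated PC9 arrays. Its call in untreated PC9 (adjusted p = 0.0475) was lost when any of 22 single time points was left out. These DKK3 calls in PC9 are not used as support. DKK1 without treatment rose to a fitted high at 4 h in PC9 and at 5 h in PC9GRM2 and was lowest at 24 h in both, over fitted ranges of 1.23 and 1.42. In gefitinib-treated PC9 its fitted high was at 0 h, and the range was 2.09. DKK3 in untreated PC9GRM2 fell from 6.51 at 0 h to 4.29 at 24 h (fitted range 2.00, against 1.10 with gefitinib). SFRP1 rose in untreated PC9GRM2 from 11.96 at 0 h to 13.12 at 24 h, while in gefitinib-treated PC9 it fell from 11.37 to 10.66. FRZB rose without treatment in both lines, over 3.54 in PC9 and 2.09 in PC9GRM2. In PC9GRM2 the first FRZB probe was well above background on only 11 of the 26 arrays, and the second gave 0.98 and missed the threshold (adjusted p = 0.0656), whereas in PC9 it gave 2.00 and was called. Without the 3 time points whose arrays stand apart, the changes of KREMEN2 (0.85, adjusted p = 0.0319) and PORCN (0.70, adjusted p = 0.0343) in untreated PC9 and of LRP6 in untreated PC9GRM2 (1.63, adjusted p = 0.0076) were called. With these time points they were 0.83, 0.64 and 2.22 and missed the threshold (adjusted p = 0.052, 0.0677 and 0.187).

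The wider family was read from a list of 40 other secreted or surface Wnt regulators, of which 38 had a probe and 22 were tested. Without treatment 14 of the 22 differed between the lines, 7 higher and 7 lower, with a median of 0.01. GPC6, a glypican, was well above background on 24 of 26 untreated PC9 arrays and on 0 of 26 of PC9GRM2. By the bound used for DKK3 it was at least 3.54-fold lower in PC9GRM2. With 1 line near background, its call is not used as support. LRP4, which binds sclerostin, was higher in PC9GRM2 by 2.02, with 12 of 26 PC9 arrays well above background. By the bound used for DKK3 it was at least 3.35-fold higher. TRABD2A, a Wnt-cleaving protease, was higher by 1.39, with 10 of 26 PC9 and 20 of 26 PC9GRM2 arrays well above background, and with the dim PC9 arrays raised as for DKK3 its difference was 0.47. With gefitinib 13 of the 22 were called in PC9, 7 higher and 6 lower. IGFBP4, which binds Frizzled and LRP6, was lower by -2.29 and ZNRF3, a ligase that removes Frizzled from the surface, by -2.22. The receptor ROR1 was lower by -1.20, and the glypican GPC4 and the co-receptor PTK7 were higher by 1.11 and 1.08. In PC9GRM2 14 of the 22 were called, 7 in each direction, with ZNRF3 at -1.06 and IGFBP4 at -1.02. SOST, the sclerostin gene, and CTHRC1, a cofactor of noncanonical Wnt signaling, were called at -1.21 and 1.11, but mostly from values not well above background. SOST was above it on 10 of 26 untreated and 2 of 26 gefitinib-treated arrays, and CTHRC1 on 4 and 13 of 26, so no fold is given for either. With EGF 4 of the 22 were called in PC9, 2 in each direction, and 1 in PC9GRM2, lower. All 5 of these counts are below the shares of all genes given above.

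The genes most like each member over all arrays were found by Pearson correlation of the log2 signal, given as a description, since the arrays share lines, treatments and slides. DKK1 was most like CEACAM5 (0.859) and SLAIN1 (0.848), DKK3 like ZFYVE28 (0.931) and PDE4A (0.921), and SFRP1 like FUT9 (0.927) and GALNT14 (0.919). PORCN was most like INF2 (0.900) and PRSS2 (0.874), LRP5 like ANO9 (0.882) and DAG1 (0.871), and FRZB like NEK10 (0.818) and HSPA1L (0.783). KREMEN1 at its dim probe was most like UBAC2 (0.724) and NUB1 (0.683), KREMEN2 like INTS9 (0.780) and RTEL1 (0.774), and LRP6 like EML4 (0.856) and RBM27 (0.664). Within a course the medians were lower for most pairs, as for DKK3 and ZFYVE28 (0.459) and SFRP1 and GALNT14 (0.354), and higher for LRP6 and EML4 (0.883). Among the members themselves, DKK1 and DKK3 correlated at 0.744 over all arrays and at a median of 0.495 within a course, and DKK3 and SFRP1 at 0.584 over all arrays but at -0.490 within a course.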

How the data were processed

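The values deposited by the authors are intensities of single arrays as Feature Extraction 10.5.1.1 gave them, per the file headers. Local background had been subtracted, and arrays had not been normalized to each other. The methods name an earlier version of that software. A further table deposited by the authors holds intensities that, set against the scanner values, proved to be quantile normalized over all features, control spots included. From the scanner intensities, quantile normalization over all arrays, a floor of 1 and log2 values were computed here. Spots flagged as outliers were removed (0.0794% of tested values), spots of a probe were averaged, and 25436 of 41000 probes were named through their accession in a RefSeq table of GRCh38.p14. Since the array annotation is of an older build, no probe coordinates are given. A gene took the value of its probe with the largest variance, as in the methods.

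Courses were compared at matched time points with limma 3.58.1 (R 4.3.3), two-sided, with Benjamini-Hochberg adjustment at 0.05, where the methods used one-sided tests between the lines. Change over time was tested by the F statistic of a natural spline of time (4 degrees of freedom). The time point is the block that pairs the courses, since the 4 treatments of a line at 1 time point share a slide. The fits were also run on simulated data with independent noise at each time point, so the dependence between time points was not covered. An array stood apart when its mean correlation with its neighbours in time was under 0.965 and lower than that of both neighbours. All 10 genes are named. Other regulators are named when called with a difference of at least 1 between the untreated lines or with gefitinib in either line, at most 5 per comparison, and the 2 most correlated genes are named for each member. The members and lists were chosen with earlier results of these data known. 1 marker of another cell type is not reported here. The number of arrays limits the precision.

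As alternatives served scaling to the 75th percentile, normexp background correction with an offset of 50, the deposited table, other probe rules, no filter on dim genes, a floor of 16, outlying points replaced by a spline, the t-test of the methods, unpaired courses, variance inflated for autocorrelation, fewer time points, scan day as a random block, a one-sided test and a spline with 3 degrees of freedom. Normexp used the median signals, since the files analysed here hold no mean signals.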

Additional observations from a re-analysis of the deposited data

Results flagged for a closer look

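The results below are effects that differed between 2 groups under the same contrast by a test of the difference itself (limma's moderated test over 26 matched time points, adjusted p under 0.05). The gefitinib effect of FRZB differed by 1.07 between PC9GRM2 and PC9, FRZB being called as lower with the drug in PC9 and not in PC9GRM2. At the second FRZB probe this difference was smaller and missed the threshold. The first probe was well above background on only 11 of 26 untreated PC9GRM2 arrays, which limits how far a fall could be seen there. The gefitinib effect of DKK3 differed by -0.77, from values that lay mostly below the well-above-background limit in PC9, and it was 0.07 with a floor of 16. The effects on KREMEN2 and PORCN differed by -0.55 and -0.33, with KREMEN2 lower with the drug in PC9GRM2 and PORCN higher with it in PC9. With EGF present the PORCN effect in PC9 was 0.03 and not called.

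The EGF effect on DKK1 was smaller in PC9GRM2 than in PC9 by -0.34, lower at 20 of 26 time points. This call held in 10 of 16 alternatives. It was lost with normexp, unpaired, with variance inflated for autocorrelation, with time points 3 h apart, and over the first or the last 13 time points. Under gefitinib the EGF effect on DKK1 differed by -0.53 in PC9 (lower at 24 of 26 time points) and by -0.57 in PC9GRM2 (22 of 26) from that without the drug. The EGF effect on SFRP1 differed likewise by -0.46 in PC9 (23 of 26) and by -0.31 in PC9GRM2 (24 of 26), and that on PORCN by -0.22 in PC9 (20 of 26). The comparisons with and without gefitinib were added after the data had been seen. As treatments kept 1 slide position each and the lines different scan days, their part in these differences was not tested.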

How the results depend on the processing

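The differences of DKK1, SFRP1 and PORCN between the lines stayed called and kept their direction under every alternative run, with all 4 treatments. Those of DKK3 did so too, but DKK3 was dim in PC9 and passed the rule for a test only in the PC9GRM2 courses. Its calls between the lines are therefore not used as support, and its difference shrank from 3.34 to 0.31 with normexp in the untreated lines. The numbers below are genes called of 9 tested. The share of all genes called under each alternative is not given, so a changed count is not read as a result about these genes.

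Unpaired, with no replicate block of time points, the EGF effect called 2 in place of 5 in PC9 and 0 in place of 3 in PC9GRM2. The difference of the EGF effects between the lines then called 0 in place of 1, and that with and without gefitinib 0 in place of 3 in PC9 and 0 in place of 2 in PC9GRM2. Time points 3 h apart called 3 in place of 6 for gefitinib in PC9, 2 in place of 5 for EGF in PC9, 0 in place of 3 for EGF in PC9GRM2, 0 in place of 4 for the gefitinib effects between the lines, 0 in place of 1 for the EGF effects between them, and 0 in place of 3 (PC9) and 1 in place of 2 (PC9GRM2) for EGF with and without gefitinib. These used 9 time points. The first 13 time points called 2 for EGF in PC9, 3 in place of 6 for gefitinib with EGF in PC9GRM2, 1 for EGF in PC9GRM2, 1 for the gefitinib effects and 0 for the EGF effects between the lines, and 0 for EGF with and without gefitinib in PC9GRM2. The last 13 called 7 in place of 4 for gefitinib, 5 for EGF and 5 for EGF with and without gefitinib, all in PC9GRM2. With variance inflated for autocorrelation, gefitinib and EGF each called 3 in PC9, and the EGF effects between the lines 0. Scaling to the 75th percentile called 4 in place of 2 for EGF with and without gefitinib in PC9GRM2, normexp 0 in place of 1 for the EGF effects between the lines, and outlying points replaced by a spline 5 in place of 3 for EGF in PC9GRM2. With scan day as a random block, change over time in gefitinib-treated PC9GRM2 was called for 3 in place of 6. Without the 3 time points whose arrays stand apart, gefitinib called 7 in place of 4 in PC9GRM2, with the members named in the text. Leaving out 1 time point at a time gave 2 to 5 for EGF in PC9GRM2 (5 without 11 h), 5 to 8 for gefitinib in PC9, 4 to 6 for it in PC9GRM2 and 4 to 8 for change over time in untreated PC9.

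Signs turned as follows where the value was called under either of the 2 settings compared. LRP6 between the lines was -0.39 untreated, -0.35 with EGF and -0.081 with both with the mean of its probes. LRP5 with gefitinib was -0.045 and KREMEN1 with EGF -0.15 over the last 13 time points, and FRZB with both agents was 0.34 with the brighter probe. FRZB with gefitinib in PC9 was 0.16, and 0.092 with EGF present, over the first 13 time points. LRP6 with gefitinib in PC9GRM2 was -0.47 over the first 13, -0.21 without 18 h and -0.19 without the 3 time points, and the DKK3 gefitinib effect between the lines was 0.071 with a floor of 16. The cause was not tested. Where fewer time points were used, their smaller number and the hours that were kept cannot be told apart. Signal over background limits DKK3 in PC9, FRZB and the first KREMEN1 probe.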
